A study of Mus musculus with 12 samples.

Results

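The genes described here are 10 core transcription factors of heart muscle: Gata4, Gata6, Nkx2-5, Tbx5, Tbx20, Hand2, Mef2a, Mef2c, Srf and the SRF cofactor Myocd. They were chosen by name, by a rule that uses no measured value, and all 10 were found among the 21669 gene names of each count table. The tables come from 12 libraries of left ventricle from adult mouse hearts, 3 for each combination of assay and genotype. WT hearts carried the intact gene, and Rpl3l-/- hearts (KO below) carried a deletion of Rpl3l, which encodes the striated muscle paralog of the ribosomal protein RPL3. No agent was given to any group, and strain, sex, exact age and the design of the allele are not given in the sources used here. Each lysate was made with cycloheximide, which arrests elongating ribosomes. One set of libraries held ribosome-protected fragments after RNase I digestion (RPF, or footprints), and the other held poly(A)-selected RNA from undigested lysate. The series describes biological triplicates, and p-values measure the spread between these samples.

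GATA4 and GATA6 are zinc finger proteins, NKX2-5 is a homeodomain protein, TBX5 and TBX20 are T-box proteins, HAND2 is a basic helix-loop-helix protein, and MEF2A, MEF2C and SRF belong to the MADS box family. They bind the promoters and enhancers of contractile, ion channel and natriuretic peptide genes, often side by side, and several of them bind one another. Myocardin, the product of Myocd, does not bind DNA by itself but joins SRF at CArG boxes to raise transcription of muscle genes. In the adult ventricle these proteins keep cardiomyocyte genes on after development has ended, and MEF2, GATA4 and SRF also take part in growth under load.

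Footprints are made where ribosomes sit, so the place where translation of a factor begins is shown first, for the 3 genes with the most footprints per RNA among those printed and the 3 with the fewest. Each line gives 21 bases of the counted GENCODE M21 transcript, 5′ to 3′, from 9 bases before the start codon. Capitals mark the third base before the start codon, the start codon itself and the base right after it.
Tbx20: ctgggaAccATGGagttcacg
Gata4: cttgggGcgATGTaccaaagc
Mef2a: tgactgAaaATGGggcgaaag
Nkx2-5: gtcgccAccATGTtccccagc
Hand2: gaaggcGagATGAgtctggtg
Mef2c: acggggActATGGggagaaaa
All 6 have a purine at the first capital, and a G follows the start codon in Tbx20, Mef2a and Mef2c. Over all members, 9 of 10 had a purine there, against 87.3% of 10846 genes with footprints and an annotated start. A G followed the start codon in 5 of 10 members and in 53.4% of those genes, and both features were present in 4 of 10 members and in 46.6% of those genes. These shares among the members were close to those of all genes.

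Promoters (250 bases before to 50 after the start, RefSeq on GRCm38.p6) were matched for 6 of the 10 genes and are shown only where they held the binding motif of a member. The CArG box, the element bound by SRF, was searched on both strands as a pair of C, a run of A or T, and a pair of G. It occurred in 1.63% of 32851 promoters and, among the matched members, in Srf alone, at bases -82 and -62. The MEF2 site, bound by MEF2A and MEF2C, occurred in 0.557% of promoters and, among the matched members, in Mef2a alone, at base -2. Both stretches below are on the minus strand, with the motifs in capitals, and they lie at chr17:46556200-46556259 and chr7:67372836-67372875.
Srf: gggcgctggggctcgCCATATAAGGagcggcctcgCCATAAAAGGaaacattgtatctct
Mef2a: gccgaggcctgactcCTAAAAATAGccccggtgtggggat
A match describes the letters of the promoter and is not a measurement of binding.

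Depth and labels were checked first. RNA libraries held 6635242 to 8459004 counts, of which 49.8% to 58.2% were of mitochondrially encoded genes, and footprint libraries held 3827862 to 7474602 counts with 2.28% to 5.22% mitochondrial. The 10 members together took 642 to 840 counts of an RNA library and 3730 to 6034 of a footprint library. Levels below are CPM, counts scaled to library sizes that were adjusted by edgeR's TMM method, and a count of 3 corresponds to 0.303 to 0.448 CPM in RNA and 0.403 to 0.788 CPM in footprints. Rpl3l RNA was 376 ± 44.5 CPM in WT and 43.9 ± 2.90 in KO, and its footprints were 228 ± 33.7 and 8.63 ± 4.18 CPM (SD, n = 3), so the target followed the labels. The 8 cardiomyocyte markers, among them Myh6, Tnnt2 and Ryr2, were present in every library. Their sum overlapped between the genotypes in both assays (in RNA, 40238 to 54989 CPM in WT and 39610 to 45955 in KO). The KO against WT estimate was positive for 1 of the 8 in RNA and 5 of the 8 in footprints, and 0 were called in either. Summed markers of fibroblasts, endothelial cells, mural cells, epicardium, atrial myocytes, adipocytes and blood overlapped between the genotypes in both assays. Macrophage markers in RNA did not (170 to 190 CPM in WT, 147 to 168 in KO), but 0 of the 8 passed the test. In RNA the estimate was positive for 7 of 8 fibroblast, 7 of 8 endothelial, 4 of 7 mural and 4 of 8 macrophage markers. It was positive for 0 of 3 epicardial, 4 of 5 atrial, 1 of 4 adipocyte and 3 of 4 blood markers. In footprints the first 4 types gave 6, 5, 3 and 3 of 8. The others gave 1 of 6, 5 of 7, 1 of 5 and 4 of 4. None was called, and the part of these cell types in the results below was not tested. In whole tissue, fewer cells of a type and less RNA per cell cannot be told apart.

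All 10 factors had footprints in every footprint library, at levels that differed between genes. Per kilobase of coding sequence, WT footprints were highest for Tbx20, a T-box repressor and activator needed for adult cardiomyocyte function, at 163 ± 16.4 CPM per kb (SD, n = 3). Nkx2-5 (93.6 ± 8.38), Gata4 (85.3 ± 16.2) and Gata6 (82.5 ± 3.36) formed the next group, and neighbours within it overlapped between libraries. Mef2a followed at 72.3 ± 4.58 and Mef2c at 49.3 ± 4.801 CPM per kb. Each of these stood clear of the next lower gene in all 3 WT libraries. Srf (29.0 ± 10.7), Hand2 (26.2 ± 9.52), Tbx5 (25.6 ± 6.24) and Myocd (22.9 ± 2.08) closed the order with overlapping ranges. The 10 lay between the 64.3 and the 93.1 percentile of footprint level per coding kb among the genes tested.

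RNA gave another order. Mef2c (40.1 ± 16.9 CPM per coding kb in WT) and Nkx2-5 (24.3 ± 7.18) overlapped at the top, and Hand2 followed at 10.1 ± 1.68, clear of both neighbours. Srf, Mef2a, Tbx5 and Myocd lay between 1.65 and 3.004 on that scale, each overlapping the next. Gata6 (0.816 ± 0.225), Gata4 (0.563 ± 0.305) and Tbx20 (0.256 ± 0.189) were lowest, each overlapping the next. Tbx20 thus had the most footprints per kb, while its RNA, mostly under 3 counts, lay at the low end and was not separated from that of Gata4.

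**Figure D1:**
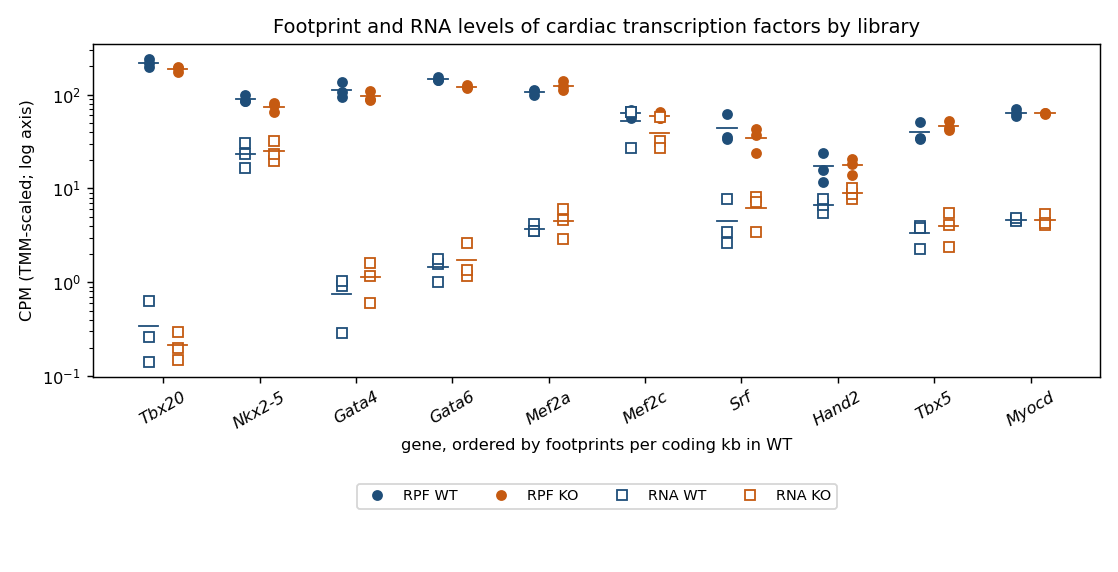
Each point is 1 library, with CPM on a log axis; filled circles are footprints, open squares RNA, blue WT and orange KO, and short lines are group means of 3. The gap between circles and squares is widest for Tbx20 (218 CPM of footprints and 0.343 CPM of RNA in WT) and smallest for Mef2c, whose circles and squares overlap. Each assay is scaled to its own totals, which include mitochondrial counts, so a gap is not the footprint to RNA ratio given below. Blue and orange overlap for most genes.

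The GATA factors were read mainly through footprints. Gata4, which binds with NKX2-5 and TBX5 at many heart enhancers, had 107, 137 and 95.1 CPM of footprints in WT and 87.6, 90.2 and 110.0 in KO. WT libraries held 2, 7 and 10 Gata4 RNA counts and KO libraries 8, 4 and 16, too low for the RNA test. The genotypes overlapped in both assays. Gata6, the close relative of Gata4 that shares much of its function in the adult heart, had WT footprints of 153, 143 and 142 CPM against 121, 116 and 127 in KO. Each KO library was thus below every WT library, which was also true of 5.77% of all genes tested in footprints. Gata6 RNA (7, 12 and 17 counts in WT, 8, 9 and 26 in KO) overlapped.

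Nkx2-5, the homeodomain factor that marks heart muscle from its origin, also had lower footprints in each KO library, with 85.3, 98.8 and 84.6 CPM in WT and 76.8, 64.5 and 81.1 in KO. Its RNA was 23.0, 16.5 and 30.2 CPM in WT and 31.7, 19.7 and 23.0 in KO, so the genotypes overlapped there. Gata6 and Nkx2-5 were the only members whose footprint libraries separated by genotype, and both differences failed the test given below.

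Of the T-box factors, Tbx5, which is needed for chamber and conduction system identity, had 34.9, 51.0 and 33.5 CPM of footprints in WT and 41.8, 52.7 and 44.5 in KO. Its RNA was 2.29, 4.02 and 3.76 CPM in WT and 2.36, 4.04 and 5.45 in KO. Tbx20 footprints were 219, 239 and 195 CPM in WT and 196, 173 and 190 in KO, with KO library 1 just above WT library 3. Tbx20 RNA was at the edge of detection, with 1, 2 and 6 counts in WT and 1, 2 and 2 in KO. All but 1 of these 6 counts are under the 3 counts that the depth resolves, so no genotype difference in Tbx20 RNA was detectable.

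Hand2, which acts with GATA4 in ventricular growth, had variable footprints of 24.0, 11.8 and 15.6 CPM in WT and 13.8, 18.3 and 20.7 in KO. Its RNA was 5.44, 6.74 and 7.63 CPM in WT and 7.81, 8.82 and 10.1 in KO. In RNA the KO libraries all lay above the WT libraries, as for 4.14% of all genes tested there. An antisense transcript, Hand2os1, overlaps 461 bases of the counted Hand2 exons, and whether strand was used in counting is not given in the sources used here.

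Among the MADS box factors, Mef2a, the main MEF2 protein of the adult heart, had 112, 99.3 and 109 CPM of footprints in WT and 111, 139 and 122 in KO. Its RNA was 4.15, 3.50 and 3.55 CPM in WT and 6.04, 4.63 and 2.93 in KO. Exons of Lysmd4 on the other strand cover 302 bases of the counted Mef2a exons. Mef2c, the MEF2 gene first active in the embryonic heart, had steady footprints of 56.8, 67.3 and 67.9 CPM in WT and 55.8, 56.3 and 65.6 in KO. Its RNA was 64.5, 65.1 and 26.7 CPM in WT and 31.98, 57.7 and 26.6 in KO. These RNA values fell into a high and a low set that each held libraries of both genotypes.

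Srf showed that same split in the other direction, with RNA at 3.43, 2.59 and 7.63 CPM in WT and 8.11, 3.44 and 7.17 in KO. Its footprints were 33.4, 62.5 and 35.6 CPM in WT and 43.1, 23.7 and 37.2 in KO. Myocd, the SRF cofactor, was the steadiest member. Its footprints were 63.4, 70.4 and 58.8 CPM in WT and 63.2, 62.6 and 63.1 in KO, and its RNA stayed between 4.13 and 5.38 CPM in all 6 libraries. The genotypes overlapped for Srf and for Myocd in both assays.

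The split of Mef2c and Srf followed the RNA libraries as a whole. The first principal component of RNA, computed without the members, held 47.9% of the variance and set WT libraries 1 and 2 and KO library 2 apart from WT library 3 and KO libraries 1 and 3. Mef2c RNA was 57.7 to 65.1 CPM in the first set and 26.6 to 31.98 in the second, and Srf RNA was 2.59 to 3.44 and 7.17 to 8.11. Both sets mix the genotypes, but unevenly, with more WT libraries in the first and more KO libraries in the second. The split thus adds spread to both groups and also enters the KO against WT estimates of genes that follow it. How far it moved those of Mef2c and Srf was not tested. Footprints did not divide this way: their first component (37.4%) set WT library 1 apart, and Mef2c footprints stayed between 55.8 and 67.9 CPM.

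**Figure D2:**
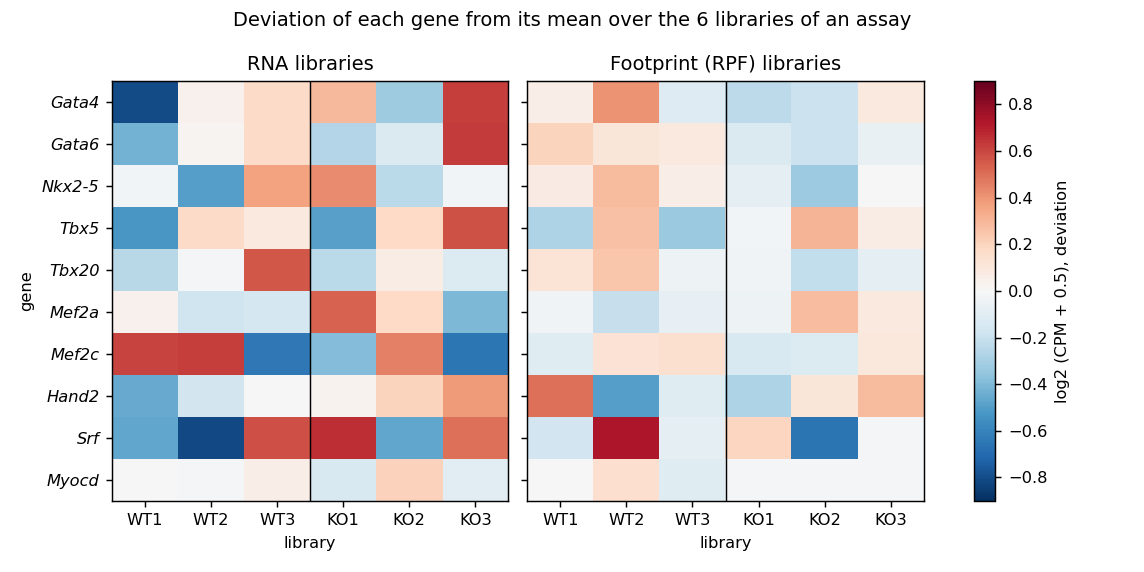
Colour gives the deviation of each gene, in log2(CPM + 0.5), from its mean over the 6 libraries of an assay, for RNA on the left and footprints on the right; red is higher. In RNA, Mef2c and Srf take opposite colours across the same libraries (Mef2c 0.61 and Srf -0.47 in WT library 1), while Myocd is pale in both panels (SD 0.12 and 0.083).

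For loss of Rpl3l, the question was whether RNA, footprints or footprints relative to RNA (translational efficiency, TE) of these factors differed from WT. No member passed the test in any of the 3. In RNA, 0 of 8 tested members had a Benjamini-Hochberg adjusted p under 0.05 by edgeR's quasi-likelihood test, against 0.0119% of all genes, which was Rpl3l alone. Gata4 and Tbx20 did not pass the filter on low counts in RNA. In footprints 0 of 10 were called, against 0.00897% of all genes, again Rpl3l alone. For TE 0 of 8 were called, against 0% of all genes. At an unadjusted p under 0.05 the members also gave 0 calls in RNA, footprints and TE, where all genes gave 2.54%, 5.96% and 3.73%, and DESeq2 called 0 members in each.

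The estimates leave room for differences of moderate size. The smallest p in footprints was that of Gata6, whose log2 fold change was -0.27 with a standard error of 0.13 (edgeR, adjusted p = 0.834). Nkx2-5 footprints gave -0.27 (SE 0.16), Gata4 -0.24 (SE 0.17), Tbx20 -0.22 (SE 0.13) and Srf -0.33 (SE 0.26). On the other side, Tbx5 gave 0.22 (SE 0.20) and Mef2a 0.21 (SE 0.15). Mef2c, Myocd and Hand2 lay between -0.11 and 0.02. Of the 10 footprint estimates 7 were negative, and their median was -0.17 (-0.21 to -0.077 with 1 library left out) where that of all genes was 0.00.

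In RNA the smallest p was that of Hand2, at 0.43 (SE 0.21; edgeR, adjusted p = 0.999). Srf (0.43, SE 0.42) and Mef2c (-0.43, SE 0.36) had estimates as large with larger errors. Both genes follow the library split described above, which is uneven between the genotypes. Gata6, Mef2a and Tbx5 gave 0.28, 0.26 and 0.25, and Nkx2-5 and Myocd 0.09 and -0.02. The median over the 8 members was 0.25 where that of all genes was -0.01, and it ran from 0.086 to 0.34 with 1 library left out. For TE, estimates ran from -0.75 (Srf, SE 0.54) to 0.34 (Mef2c, SE 0.43), and the smallest p was that of Gata6 (-0.53, SE 0.37). For TE, the RNA and footprint libraries of 1 number and genotype were left out together. This moved Srf between -1.48 and -0.13, Mef2c between 0.059 and 0.79 and Gata6 between -0.72 and -0.045. The TE median of the members was -0.18 and that of all genes 0.01. A missed threshold does not show that the genotypes were alike.

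**Figure D3:**
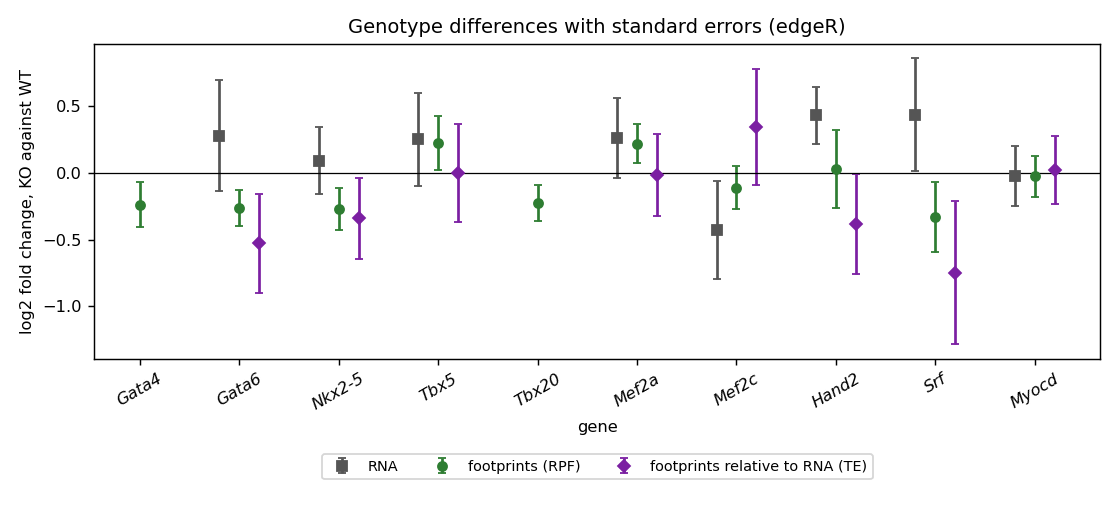
Points are log2 fold changes of KO against WT from edgeR and bars are standard errors, for RNA (squares), footprints (circles) and footprints relative to RNA (diamonds); Gata4 and Tbx20 have footprints only. Footprint errors (0.13 to 0.29) are smaller than RNA errors (0.21 to 0.42) of the same gene, except for Hand2 (0.29 in footprints and 0.21 in RNA). No estimate of a member passed the test.

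For most members, footprints and RNA of the same gene differed more than the genotypes did, but this did not hold for Nkx2-5 or for Hand2 in WT. In the fit of all 12 libraries, footprints of WT were above RNA at an adjusted p under 0.05 for 5 of 8 tested members, against 38.3% of all genes, and below RNA for 1, against 35.6% of all genes. In KO, 4 of 8 were above (37.9% of all genes) and 2 below (34.7% of all genes). These differences are relative to TMM scaling, on which the median gene lay at 0.05 in WT and 0.08 in KO. Gata6 was highest of the 8 that passed the RNA filter, with log2 differences of 4.96 (SE 0.25) in WT and 4.44 (SE 0.25) in KO. Mef2a gave 3.18 (SE 0.23) and 3.16 (SE 0.22), Myocd 2.13 and 2.15 (SE 0.18 each), and Tbx5 1.89 (SE 0.29) and 1.88 (SE 0.28). In a fit with no filter, Tbx20 gave 7.11 and 7.72, and Gata4 5.11 and 4.34, from the few RNA counts listed above.

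The remaining members were nearer to balance or below it. Where libraries are left out below, the RNA and footprint libraries of that number and genotype were left out together. Srf was called in WT (1.57, SE 0.38; edgeR, adjusted p = 0.00152). It was not called there without the WT libraries numbered 2 (0.92; edgeR, adjusted p = 0.0570). In KO it was not called (0.83, SE 0.37; edgeR, adjusted p = 0.0571). Srf in KO was called when the WT libraries numbered 2 or those numbered 3 were left out of the common fit (0.79 and 0.81). It was also called in a fit with a replicate block (0.86; edgeR, adjusted p = 0.0280). Nkx2-5 was not called in either genotype (0.28 and -0.06, SE 0.21 each), but among genes averaging 50 counts or more it was called in WT (0.83; edgeR, adjusted p = 0.00335). Mef2c footprints were below its RNA in WT (-1.37, SE 0.31) and in KO (-1.02, SE 0.31). The KO difference was not called without the KO libraries numbered 2 (-0.63; edgeR, adjusted p = 0.107). Hand2 was below in KO (-0.67, SE 0.26; edgeR, adjusted p = 0.0304). That call was lost without the KO libraries of any 1 number, where Hand2 ran from -0.76 to -0.64. In WT Hand2 was not called (-0.28, SE 0.27), but it was without the WT libraries numbered 1 (-0.77). With all libraries, it was also called with no filter on low counts (-0.68; edgeR, adjusted p = 0.0345). The genotype difference of each of these ratios is the TE test above, which called none.

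The ratios were also taken over the totals of nuclear-encoded counts, with 95% intervals (exact binomial) that cover counting error only. This scale gives higher ratios than TMM, and it puts Hand2 in WT and Nkx2-5 in KO above 1 where the TMM estimates were below balance. Tbx20 had 2901 footprint counts and 9 RNA counts over the 3 WT libraries, a 274-fold excess (144 to 601), and 3549 and 5 counts in KO, a 386-fold excess (165 to 1190). For Gata4 the excess was 67.0-fold (42.8 to 112) in WT and 34.9-fold (24.0 to 52.6) in KO, and for Gata6 46.4-fold (33.4 to 66.5) and 29.2-fold (21.6 to 40.4). Mef2a followed at 13.6-fold and 12.7-fold, Myocd at 6.45-fold and 6.16-fold, and Tbx5 at 5.36-fold and 4.96-fold. Srf gave 4.15-fold and 2.41-fold, Nkx2-5 1.76-fold and 1.32-fold, and Hand2 1.23-fold and 0.839-fold. Mef2c was lowest at 0.602-fold and 0.699-fold. The genes set beside the members were 11054 nuclear-encoded genes that passed the filter on low counts in footprints, with no filter on RNA. That choice admits genes with little RNA but not genes with few footprints. On this scale the median of these genes was a log2 ratio of 1.30 in WT and 1.1801 in KO. Of the 10 members, 7 lay above it in each. Tbx20, Gata4 and Gata6 stood at the 99.9, 99.0 and 98.2 percentile of this set in WT, and Mef2c at the 16.5 percentile. Tbx20 and Gata4 had not passed the filter in RNA.

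The ratio moved with the annotated length of the 3′ UTR, the part of an mRNA after its stop codon. Across the 11054 genes, Spearman's rho between that length and the log2 ratio was 0.45 in WT and 0.47 in KO, a description across genes that share libraries and are not independent replicates. The rho with the length of the 5′ UTR was 0.03, with coding length 0.14 and with coding GC content 0.06 in WT. Among these genes, rho of that length with the RNA level was -0.42 and with the footprint level -0.07. Because the genes were filtered on footprints alone, these 2 rhos cannot be compared on equal terms. With the genes in 10 groups of about equal size by that length, the median log2 ratio was -0.62 in the group up to 183 bases and 2.29 in the group of 3531 bases or more.

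The members followed that order, with a rho of 0.76 over the 10 in each genotype. The 4 shortest 3′ UTRs were those of Nkx2-5 (358 bases), Mef2c (712), Srf (754) and Hand2 (773), and these genes had the 4 lowest ratios in both genotypes. Mef2a (829 bases), Gata6 (1153) and Gata4 (1453) came next in length, followed by Tbx5 (1732), Myocd (1884) and, at 7314 bases, Tbx20. The match was not complete, since Gata4, Gata6 and Mef2a had higher ratios than Tbx5 and Myocd with longer 3′ UTRs. Within its own group by length, Tbx20 stood at the 99.9 percentile of ratio in WT, Gata4 at 98.8, Gata6 at 98.7 and Mef2a at 92.4. Srf stood at 74.0, Myocd at 57.6, Nkx2-5 at 56.9, Tbx5 at 55.6, Hand2 at 22.7 and Mef2c at 12.9. Mef2a and Mef2c also have annotated transcripts with 3′ UTRs of 3705 and 4449 bases, longer than those of the counted ones. The region of each transcript that was counted is not given in the sources used here, and the part of 3′ UTR length or of RNA quality in these ratios was not tested.

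**Figure D4:**
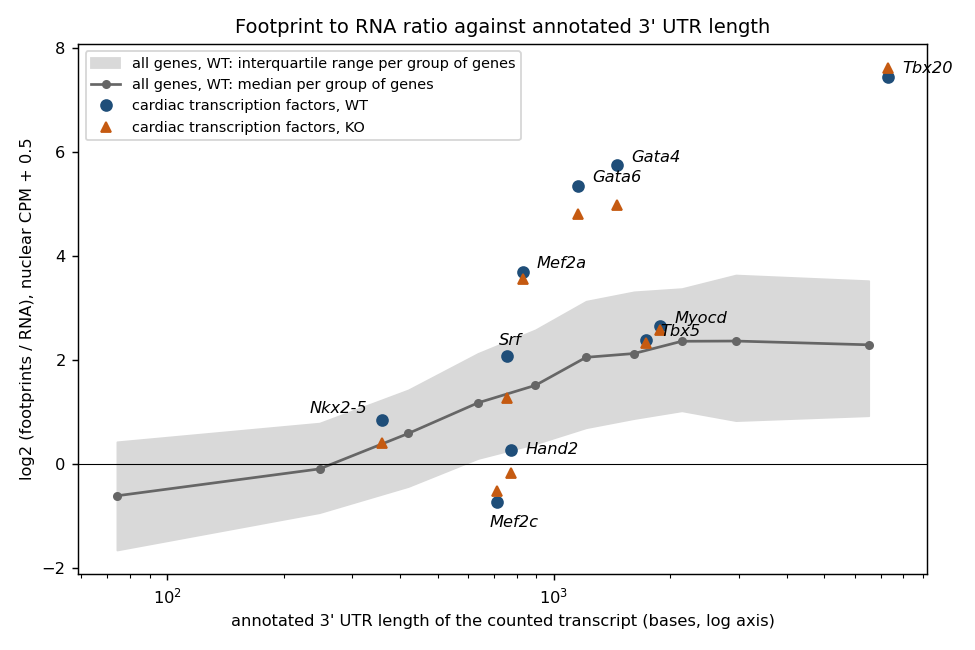
The horizontal axis is the annotated 3′ UTR length in bases (log axis). The vertical axis is the log2 ratio of footprints to RNA, as nuclear CPM + 0.5. The grey line and band are the median and interquartile range in WT, by the 10 groups of length, of the 11054 genes that passed the filter in footprints. Blue circles are members in WT and orange triangles in KO. Gata6, Gata4 and Tbx20 lie well above the band (WT log2 ratios of 5.34, 5.74 and 7.44) and Mef2c lies below it (-0.74).

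The transcripts of the members had other features in common that the choice by name did not use. All 10 lay above the median gene in the share of proline codons, with a median of 9.38% against 5.48%, and from 7.34% in Srf to 12.6% in Nkx2-5. All 10 also had 5′ UTRs longer than the median gene, with a median of 397.5 bases against 179. Alanine codons divided the members: Nkx2-5 (15.4%), Gata6 (14.8%), Gata4 (14.3%), Hand2 (12.9%) and Srf (10.3%) lay above the median gene at 6.94%, and the T-box genes, the MEF2 genes and Myocd lay below it. Coding length did not set them apart, with a median of 1408.5 bases against 1416.

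On GRCm38 (GENCODE M21), Gata4 lies at chr14:63198922-63245248 on the minus strand with 7 exons, Nkx2-5 at chr17:26838664-26841565 (minus, 2 exons), Tbx5 at chr5:119834663-119885219 (plus, 9 exons) and Tbx20 at chr9:24718138-24774284 (minus, 8 exons). Mef2a lies at chr7:67234039-67372858 (minus, 11 exons), Mef2c at chr13:83504034-83663343 (plus, 11 exons) and Hand2 at chr8:57320983-57324633 (plus, 2 exons). Srf lies at chr17:46548329-46556175 (minus, 7 exons) and Myocd at chr11:65176561-65269941 (minus, 13 exons). These spans belong to the 1 transcript per gene that the tables name, and the build the authors used is not given in the sources used here.

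The partners and targets of these factors gave no call between genotypes either. Over all genes there was 1 call in RNA, 1 in footprints and 0 for TE. Of 40 relatives and cofactors in the tables, 0 of 21 tested in RNA, 0 of 34 in footprints and 0 of 21 in TE were called, and their median footprint difference was -0.09. The lowest footprint estimates with separated groups were those of Hey1 (-0.71, SE 0.29), a Notch-responsive repressor, and Irx3 (-0.49, SE 0.19), an Iroquois factor of the conduction system. Fhl2, a LIM-domain cofactor of SRF, had the highest, with 1264 ± 155 CPM of footprints in WT and 1639 ± 93.0 in KO (0.37, SE 0.12; edgeR, adjusted p = 0.834). Ep300, an acetyltransferase that GATA4 recruits, gave -0.15 (SE 0.15). In footprints 6 of the 34 separated by genotype, where 5.77% of all genes had every KO library below every WT library and 6.28% above. In RNA 0 of the 21 did, where these shares were 3.23% and 4.14%.

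Cardiomyocyte targets of GATA, NKX2-5, T-box, HAND2 and MEF2 proteins numbered 32, and 0 of 29 in RNA, 0 of 32 in footprints and 0 of 29 in TE were called. At an unadjusted p under 0.05 (edgeR), 3 were higher and 6 lower in KO footprints, a larger share than the 5.96% of all genes. In RNA 1 was higher and 2 were lower, where all genes gave 2.54%. The nearest to the threshold was Hspb7, a small heat shock protein of heart muscle, with footprints of 2030, 2002 and 1980 CPM in WT and 1448, 1381 and 1473 in KO (-0.48, SE 0.10; edgeR, adjusted p = 0.517). Footprints of Myl2, the ventricular regulatory light chain, were 13300 ± 1256 CPM in WT and 10842 ± 366 in KO (-0.30, SE 0.09). Those of Gja5, a gap junction protein of atrium and conduction system, gave 0.61 (SE 0.26), and those of the potassium channel Kcnj2 0.37 (SE 0.16). In footprints 6 of 32 separated by genotype, against the same shares of all genes. In RNA, Ankrd1, a stretch-responsive target of several of these factors, was 1854 ± 476 CPM in WT and 1065 ± 205 in KO (-0.80, SE 0.23; edgeR, adjusted p = 0.999). Myh6, the adult cardiac myosin heavy chain, gave -0.22 (SE 0.18) and Smyd1, a muscle methyltransferase, 0.20 (SE 0.20).

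Of 26 genes with CArG boxes bound by SRF and myocardin family cofactors, 0 of 22 in RNA, 0 of 25 in footprints and 0 of 22 in TE were called. At an unadjusted p under 0.05 (edgeR), 0 were higher and 2 lower in KO footprints, where all genes gave 5.96%. In RNA 1 was higher and 0 were lower, where all genes gave 2.54%. Groups separated for 2 of 25 in footprints, Tagln and Mylk, both products of smooth muscle, against 5.77% of all genes below and 6.28% above. Tagln had 32.2 ± 3.91 CPM in WT and 22.04 ± 1.28 in KO (-0.54, SE 0.20; edgeR, adjusted p = 0.834), and Mylk 47.4 ± 6.51 and 34.4 ± 0.881 (-0.46, SE 0.18; edgeR, adjusted p = 0.834). Summed mural cell markers overlapped between the genotypes in footprints, with 1509 to 1832 CPM in WT and 1518 to 1845 in KO.

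Footprints relative to RNA were also summarised for each list. The median log2 ratio of footprints to RNA in WT was 2.51 over the 10 members and 2.45 over 34 relatives and cofactors, with median 3′ UTRs of 991 and 1187 bases. Over 25 SRF targets it was 1.43 (769 bases), and over 32 cardiomyocyte targets 0.82 (460.5 bases). Over the 11054 genes that passed the filter in footprints it was 1.30 (1048 bases). The medians of the regulators lay above those of the target lists, with longer 3′ UTRs. Against those 11054 genes, however, the members had a higher median ratio with a slightly shorter median 3′ UTR. The difference between the lists was not tested.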

How the data were processed

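The deposited files hold whole-number counts per gene, 1 named transcript each, made by the authors. The submitters' processing notes name cutadapt 1.18 and Bowtie2 2.4.2 without their roles. The counting program, build, counted region, strand and treatment of reads with several matches are not given in the sources used here. PCR copies cannot be recognised, so intervals and the floor of 3 counts cover counting error only.

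The rule for the members uses no measured value, but members and lists were chosen with earlier results of these data known. Counts were tested with edgeR 4.0.16 (R 4.3.3; TMM, filterByExpr with a minimum count of 10, quasi-likelihood test, Benjamini-Hochberg over all genes at 0.05), per assay for genotype and over 12 libraries for RPF against RNA and for TE. The fits were tested on simulated data. All members were named; list genes were named if called, or if among the 2 highest and 2 lowest separated genes averaging 50 counts or more. Transcript features came from GENCODE M21 (21425 names matched). Alternatives were median-of-ratios scaling, DESeq2 1.42.0, other filters, left-out genes or libraries, a common fit and a replicate block. In the RNA and footprint fits 1 library was left out at a time. For TE and for footprints against RNA, the RNA and footprint libraries of 1 number and genotype were left out together. Same-numbered WT and KO libraries correlated at -0.20 to 0.41 in RNA and 0.00 to 0.06 in footprints. The deviations of RNA and footprint libraries of the same number correlated at 0.08 to 0.15 in WT and 0.11 to 0.12 in KO. Whether such libraries share a heart is not given in the sources used here. Since not every pair was above 0.1, numbers were not taken as pairs in the main fits.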

Additional observations from a re-analysis of the deposited data

How the results depend on the processing

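No member was called between genotypes under any alternative run. The lowest adjusted p of a member was 0.523 in RNA, 0.656 in footprints and 0.459 for TE. Of 186 summary values recomputed, 166 stayed within their limits and 20 moved. Of 502 recomputed member values, 458 kept direction and call, 6 gained a call, 7 lost one and 31 changed sign. The causes were not tested, and RNA depth limits Gata4, Gata6 and Tbx20 most.

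With no filter, RNA gave 4 calls between genotypes and footprints gave 60, in place of 1 each. DESeq2 called 5 genes in footprints and 1 for TE. The replicate block called 4 genes in footprints, turned Tbx5 in TE to 0.036 and called Srf in KO footprints against RNA (0.86; edgeR, adjusted p = 0.0280). It changed no other call of a member. Without a filter, Tbx5 and Mef2a in TE became 0.049 and 0.037, Nkx2-5 in WT footprints against RNA became -0.12, Hand2 in WT was called (-0.68), and the KO median of the members became 1.67. A mean of at least 50 counts in both assays left 3 members (Nkx2-5, Mef2c and Hand2) in the TE and footprint against RNA fits. The TE median was then -0.38. In WT 2954 genes and 2 members were called against RNA, with a median of 0.27, which is also the value of Hand2, and with Nkx2-5 called at 0.83. In KO 2912 genes and 0 members were called, with a median of -0.16 and Nkx2-5 at 0.45.

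Leaving out 1 library at a time gave 1 to 2 genes called in footprints between genotypes. In RNA, Gata6 ran from -0.21 to 0.47, Nkx2-5 from -0.13 to 0.33, Tbx5 from -0.083 to 0.49, Mef2a from -0.0057 to 0.52 and Myocd from -0.15 to 0.034. In footprints, Hand2 ran from -0.17 to 0.35, Srf from -0.53 to 0.0072 and Myocd from -0.084 to 0.045. For TE and for footprints against RNA, the RNA and footprint libraries of 1 number and genotype were left out together. For TE, Tbx5 then ran from -0.19 to 0.37, Mef2a from -0.26 to 0.32, Hand2 from -0.60 to 0.057 and Myocd from -0.047 to 0.16. Srf ran from -1.48 to -0.13, Mef2c from 0.059 to 0.79 and Gata6 from -0.72 to -0.045. The TE median of the members ran from -0.38 to -0.013. For footprints against RNA, the WT median ran from 1.35 to 2.12 and the KO median from 1.24 to 1.73, and Nkx2-5 ran from -0.019 to 0.53 in WT and from -0.21 to 0.090 in KO.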
